A study of Mus musculus with 6 samples.

Results

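The 2′-5′ oligoadenylate synthetase (OAS) family was followed in the transcriptome of mouse embryonic fibroblasts (MEFs) with and without the mitochondrial protease YME1L. The members were Oas1a, Oas1b, Oas1c, Oas1g, Oas2, Oas3, Oasl1 and Oasl2, chosen by gene symbol with earlier results of these data known. They were 8 of the 51499 loci in the count table. No member's locus was named with a further gene, and all 8 passed the filter on low counts, whereas 13867 loci of the whole table did. Oas1g and Oas3 passed it through the Yme1l-/- libraries alone, so that their presence among the tested loci already required a difference, and the other 6 members passed it in both genotypes.

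RNA was sequenced from 6 cultures, 3 wild type (WT) and 3 Yme1l-/-. Both genotypes came from MEFs with floxed Yme1l alleles, immortalized with SV40 large T antigen. Cre recombinase was then introduced, and clonal lines of either genotype were obtained. The WT cells kept the floxed alleles (Yme1l fl/fl in the labels), the Yme1l-/- cells had lost both, and neither group was given any further treatment. How many such clones stand behind each genotype is not stated, so that a difference between the genotypes cannot be told apart from a difference between clones. The 3 cultures of a genotype are independent cultures and not separate animals, and the p-values measure the spread between cultures.

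The OAS proteins sense double-stranded RNA in the cytosol. The active synthetases then join ATP into 2′-5′-linked oligoadenylates (2-5A), a second messenger of the antiviral response that phosphodiesterases degrade again. Most OAS genes are interferon-stimulated genes: the factor ISGF3, which holds STAT2 and IRF9, binds the interferon-stimulated response element (ISRE) in their promoters. The mouse carries a set of Oas1 paralogs, of which Oas1a and Oas1g encode active enzymes, whereas Oas1b, known as a flavivirus resistance gene, and Oas1c encode proteins without synthetase activity. Of the OAS-like genes, Oasl2 encodes an active synthetase, and Oasl1 an inactive protein known to restrain translation of Irf7 mRNA.

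All 8 genes lie on chromosome 5 (build GRCm38), in 2 groups. Oas2 (chr5:120730333-120749853, minus strand), Oas3 (chr5:120753098-120777661, minus), Oas1c (chr5:120777796-120812514, minus), Oas1b (chr5:120812635-120824163, plus), Oas1g (chr5:120876142-120887613, minus) and Oas1a (chr5:120896256-120907521, minus) form the main cluster. Oasl2 (chr5:114896936-114912234, plus) and Oasl1 (chr5:114917318-114937915, plus) form the other. These are the assembled loci of the count table, and for Oas1c the locus spans the interval of Oas1e as well. Oas1b is annotated as a polymorphic pseudogene in the reference genome, and its transcripts were counted all the same.

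Of the 8 members, 6 had an entry in the RefSeq promoter table (GRCm38.p6, 250 bases before to 50 after each start), namely Oas1a, Oas1g, Oas3, Oas1c, Oasl1 and Oasl2. The ISRE core, spelled GAAANNGAAA and searched on both strands, was present in 4 of these 6 windows and in 1131 of all 32851 windows of the table (3.44%). The stretches that hold it are shown because 5 of the genes around them, Oas1b included, were called higher in Yme1l-/- cells, as were 33.6% of all tested loci. Of the 5, Oas1g and Oas3 had to differ to be tested, and Oasl2, without a core match in its window, was called higher too. The stretches end at the RefSeq start of the gene and are written on its strand, with the bases of the ISRE core in capitals. The Oas1a stretch is chr5:120907526-120907675, the Oas1g stretch chr5:120887614-120887763 and the Oas3 stretch chr5:120777660-120777809, each of 150 bases on the minus strand. The fourth stretch, chr5:120812515-120812634, holds the 120 bases between the starts of Oas1c and Oas1b, which are transcribed away from each other, and is written on the strand of Oas1c.
Oas1a: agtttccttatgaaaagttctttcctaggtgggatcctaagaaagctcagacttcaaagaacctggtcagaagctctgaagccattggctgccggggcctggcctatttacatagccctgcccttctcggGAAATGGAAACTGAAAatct
Oas1g: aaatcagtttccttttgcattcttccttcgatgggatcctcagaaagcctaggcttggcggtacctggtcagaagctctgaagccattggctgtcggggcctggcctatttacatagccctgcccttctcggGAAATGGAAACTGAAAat
Oas3: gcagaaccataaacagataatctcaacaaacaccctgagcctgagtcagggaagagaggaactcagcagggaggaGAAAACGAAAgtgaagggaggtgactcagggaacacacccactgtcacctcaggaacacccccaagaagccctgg
Oas1c to Oas1b: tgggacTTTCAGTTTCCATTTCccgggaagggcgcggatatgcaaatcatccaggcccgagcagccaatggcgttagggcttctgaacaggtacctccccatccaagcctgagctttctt

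In Oas1a and Oas1g, 2 core matches overlapped 6 bases apart, beginning 20 and 14 bases before the start of Oas1a and 18 and 12 bases before that of Oas1g. The matches together covered the same 16 bases, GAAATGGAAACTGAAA, in both genes. Between Oas1c and Oas1b the same 16 bases were found on the opposite strand to Oas1c, 114 bases before its start, so that they read in the direction of Oas1b. Only 7 of the 32851 windows held this run, and they belonged to 5 genes, Oas1a, Oas1g, Oas1c, Apol9a and Apol9b. Oas3 had 1 core match, 75 bases before its start, and no core match was found in the windows of Oasl1 and Oasl2. The RefSeq start of Oasl1, after chr5:114923239, lies inside its counted locus, which begins at chr5:114917318. The bases before the start of that locus were not searched. A match describes the letters and no binding was measured.

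**Figure D1:**
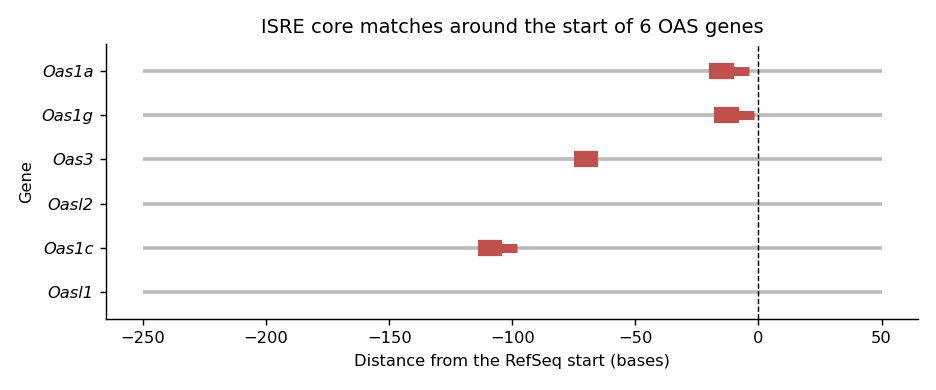
Positions of ISRE core matches (red) in the RefSeq windows (grey lines) of 6 OAS genes, in bases from the annotated start, which is the dashed line at 0. Oas1a, Oas1g and Oas1c each carry 2 overlapping matches, drawn as a thick and a thinner block, Oas3 carries 1, and Oasl2 and Oasl1 carry none.

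The WT libraries held 33180867 to 34012520 counted fragments, and the Yme1l-/- libraries 34624075, 49351107 and 49157459. The targeted transcript Yme1l1 was at 191, 192 and 183 CPM (fragments scaled to library depth) in WT and at 37.9, 38.9 and 40.6 in Yme1l-/- cultures, a log2 fold change of -2.27 ± 0.05 (SE, edgeR adjusted p 2.43e-11). The 9 fibroblast markers summed to between 11000 and 11500 CPM in WT and between 6720 and 7210 CPM in Yme1l-/- cultures. Of the 8 tested, 6 were called lower, and Col1a1 was called higher (mean 1620 CPM in WT and 2180 CPM in Yme1l-/- cultures). Col3a1 was at 301 CPM in WT culture 2, against 86.3 and 91.1 CPM in the other WT cultures. Thy1 was the only fibroblast marker near 0, with 4 to 6 fragments per WT library and 0 in the Yme1l-/- libraries. Of the 6 leukocyte markers, the defining marker Ptprc had 0 or 1 fragment in every library and Adgre1 had 0. Both markers of that list that were tested, Cd68 (2.05-fold, edgeR adjusted p 4.83e-05) and Cd14 (1.3-fold, edgeR adjusted p 0.035), were called higher in Yme1l-/- cultures. Itgam had 2 to 4 fragments in WT and 9 to 29 in Yme1l-/- libraries, and Csf1r 2 to 5 and 11 to 20. The sum of the list was 4.17 to 4.46 CPM in WT and 7.14 to 7.79 CPM in Yme1l-/- cultures. The 4 epithelial markers summed to 32.9 to 34.9 CPM in WT, nearly all of it Krt18, and to 0.294 to 0.657 CPM in Yme1l-/- cultures, and the 3 endothelial markers to 0.827 to 1.37 CPM in WT and 1.63 to 1.98 CPM in Yme1l-/- cultures. The part of these differences in the OAS values was not tested.

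Transcripts of 7 of the 8 OAS genes were higher in Yme1l-/- than in WT MEFs, between 2.57-fold for Oas1c and 26.2-fold for Oas3. The exception was Oasl1, whose level was nearly the same in both genotypes. The 5 synthetase genes Oas1a, Oas1g, Oas2, Oas3 and Oasl2 all rose, as did the inactive paralogs Oas1b and Oas1c. In the edgeR quasi-likelihood fit over all loci, at a Benjamini-Hochberg adjusted p of 0.05, 7 members were called higher and 0 lower. Oas1g and Oas3 are among the 7 and had to differ to be tested, so they are set aside in the comparison with all loci. Of the 6 members that passed the filter in both genotypes, 5 were called higher, each by 2-fold or more. Over all tested loci, 33.6% were called higher and 34.1% lower, so that a call in either direction was common. A call with a rise of 2-fold or more was made for 9.10% of all tested loci. The 6 members that passed in both genotypes had a median log2 fold change of 2.27, and the median over all tested loci was 0.00. In bulk RNA, more cells with a transcript and more transcript per cell cannot be told apart.

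**Figure D2:**
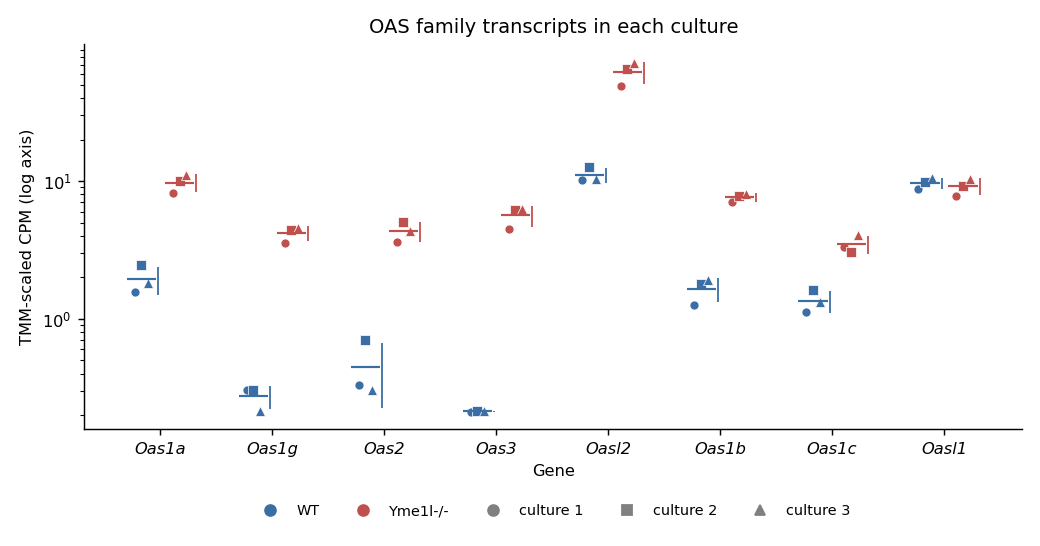
TMM-scaled CPM on a log axis for the 8 OAS genes in each culture, with WT in blue, Yme1l-/- in red, the culture number as the symbol, horizontal lines at the mean and vertical lines for ± 1 SD (n = 3). The 3 Yme1l-/- cultures lie above the 3 WT cultures for every gene but Oasl1, where the genotypes overlap.

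Of the synthetases, Oas3, which encodes the largest protein of the family, had the highest fold change. Its transcript was counted as 7 fragments in each WT library and as 158, 312 and 318 fragments in the Yme1l-/- libraries. Scaled to depth, this was 0.211, 0.214 and 0.214 CPM in WT and 4.51, 6.19 and 6.24 CPM in Yme1l-/- cultures. Every Yme1l-/- culture was far above every WT culture. The log2 fold change was 4.71 ± 0.22 (SE, n = 3 per genotype, edgeR adjusted p 1e-08).

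Oas2 encodes a further synthetase, next to Oas3 in the cluster. It was at 0.332, 0.703 and 0.306 CPM in WT and at 3.63, 5.02 and 4.34 CPM in Yme1l-/- cultures. WT culture 2 was the highest of the WT cultures, and the genotypes did not overlap. The log2 fold change was 3.27 ± 0.27 (SE, edgeR adjusted p 8.33e-07), the widest error among the members.

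The active Oas1 genes differed from each other in WT level. Oas1g was at 0.302, 0.305 and 0.214 CPM in WT, from 10, 10 and 7 fragments, and at 3.57, 4.40 and 4.57 CPM in Yme1l-/- cultures, a log2 fold change of 3.92 ± 0.21 (SE, edgeR adjusted p 3.22e-08). Oas1a was at 1.57, 2.44 and 1.81 CPM in WT and at 8.20, 10 and 11.1 CPM in Yme1l-/- cultures, a log2 fold change of 2.33 ± 0.17 (SE, edgeR adjusted p 3.73e-07). The lowest Yme1l-/- culture was above the highest WT culture in both. Of the 100-base windows of the longest Oas1a transcript, 40.9% occur identically in Oas1g transcripts, and 38.2% of those of Oas1g occur in Oas1a. The longest transcripts are 90.5% identical. How fragments that match both were assigned is not stated, so the split between Oas1a and Oas1g is uncertain, whereas transcripts of the other members shared no such window, except Oas1c, with 4.47% shared with the overlapping gene model Gm43069.

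Oasl2, the active OAS-like synthetase, had the highest mean CPM of the members in both genotypes, although Oasl1 was at 10.5 CPM against its 10.3 CPM in WT culture 3. It was at 10.2, 12.7 and 10.3 CPM in WT and at 49.3, 65.4 and 71.9 CPM in Yme1l-/- cultures. No culture of one genotype reached the range of the other. The log2 fold change was 2.50 ± 0.17 (SE, edgeR adjusted p 9.77e-06).

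The inactive Oas1 paralogs, whose starts lie 120 bases apart, differed in their change. Oas1b was at 1.27, 1.80 and 1.90 CPM in WT and at 7.0, 7.73 and 8.09 CPM in Yme1l-/- cultures, with a log2 fold change of 2.2 ± 0.15 (SE, edgeR adjusted p 2.52e-07). Oas1c was at 1.12, 1.62 and 1.32 CPM in WT and at 3.31, 3.05 and 4.06 CPM in Yme1l-/- cultures, with a log2 fold change of 1.36 ± 0.18 (SE, edgeR adjusted p 5.12e-05). Neither gene overlapped between genotypes. The Oas1b to Oas1c fragment ratio was 1.23 ± 0.182 (SD, n = 3) in WT and 2.21 ± 0.284 (SD, n = 3) in Yme1l-/- cultures. Every Yme1l-/- culture had a higher ratio than every WT culture, and the two-sided exact permutation test over 3 against 3 cultures gave p = 0.1, the smallest it allows.

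Oasl1 did not pass the test. Its transcript was at 8.73, 9.81 and 10.5 CPM in WT and at 7.83, 9.26 and 10.4 CPM in Yme1l-/- cultures. The ranges overlapped, and Yme1l-/- culture 1 was below every WT culture. The log2 fold change was -0.07 ± 0.12 (SE, edgeR adjusted p 0.602), with a 95% interval from -0.33 to 0.19, so that a fold change above 1.14 or below 0.794 lay outside the interval. At 274 to 531 fragments per library, Oasl1 was counted more deeply than Oas1b or Oas3, and its interval was narrower. Among the 7 other members the lowest lower bound, that of Oas1c, was 0.96 on the log2 scale.

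The 3 Yme1l-/- libraries were all above the 3 WT libraries for 5 of the 6 members that passed the filter in both genotypes, which held for 35.9% of all tested loci. Among the Yme1l-/- cultures, culture 1 was the lowest for 7 of 8 members and culture 3 the highest for 7 of 8, the exceptions being Oas1c and Oas2. Yme1l-/- culture 1 also had the fewest fragments of the 3, and the part of depth in this order was not tested. Among the WT cultures, culture 1 was the lowest for 6 members, and the highest was culture 2 for 5 members and culture 3 for 3. The order of the WT cultures for Oas3 rests on 7 fragments in each. The same orders were not counted over all loci.

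Levels of different genes were compared as CPM per kilobase of the longest annotated transcript. In WT, Oasl1 (mean 4.44 CPM per kilobase) and Oasl2 (3.53) came first, followed by Oas1a (1.03), Oas1b (0.902), Oas1c (0.59), Oas1g (0.139), Oas2 (0.113) and Oas3 (0.0452). The WT ranges overlapped between the neighbours Oasl1 and Oasl2, Oas1a and Oas1b, Oas1b and Oas1c, and Oas1g and Oas2. Within the cultures, however, Oasl1 exceeded Oasl2, and Oas1b exceeded Oas1c, in 3 of 3, whereas Oas1a exceeded Oas1b and Oas1g exceeded Oas2 in 2 of 3. In Yme1l-/- cultures the order was Oasl2 (19.9 CPM per kilobase), Oas1a (5.18), Oasl1 (4.21), Oas1b (4.14), Oas1g (2.12), Oas1c (1.52), Oas3 (1.2) and Oas2 (1.09). Here the range of Oas1a overlapped with that of Oasl1, Oasl1 with Oas1b and Oas3 with Oas2. Within the cultures Oas1a exceeded Oasl1 and Oas3 exceeded Oas2 in 3 of 3, and Oasl1 exceeded Oas1b in 2 of 3. Orders within 3 cultures are given without a test. The authors' pooled FPKM values, which are means per genotype without an error, were 6.19 in WT and 32.4 in Yme1l-/- for Oasl2, 0.0764 and 1.56 for Oas3, and 5.21 and 4.78 for Oasl1.

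The make-up of the family's transcripts differed between the genotypes. The summed level of all 8 genes was 26.6 CPM in WT (SD 2.95, n = 3) and 106 CPM in Yme1l-/- cultures (SD 17.3), a ratio of 4.0. Oasl1 made up 36.8%, 33.2% and 39.6% of the family's fragments in the WT cultures and 8.97%, 8.34% and 8.64% in the Yme1l-/- cultures. Oasl2 went from 42.9%, 42.9% and 38.7% in WT to 56.4%, 58.9% and 59.6%. Oas3 made up 0.808% ± 0.0843 (SD, n = 3) of the fragments in WT and 5.30% ± 0.231 in Yme1l-/- cultures, and per kilobase of transcript 0.422% and 3.04%. The share of Oas1a was 7.23% in WT and 9.20% in Yme1l-/- cultures, and per kilobase 9.46% and 13.2%. Per kilobase the difference between genotypes was thus smaller for Oas3 and larger for Oas1a. Oas1g and Oas2 stood at 1.04% and 1.64% in WT and at 3.95% and 4.09% in Yme1l-/- cultures. The share of Oas1c was lower, at 5.05% ± 0.388 in WT and 3.30% ± 0.526 in Yme1l-/- cultures. The cultures of the genotypes separated fully for the shares of 7 members, each with p = 0.1 in the two-sided exact permutation test, the smallest p that 3 against 3 allows, and overlapped for Oas1b (p = 0.3, exact permutation test).

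**Figure D3:**
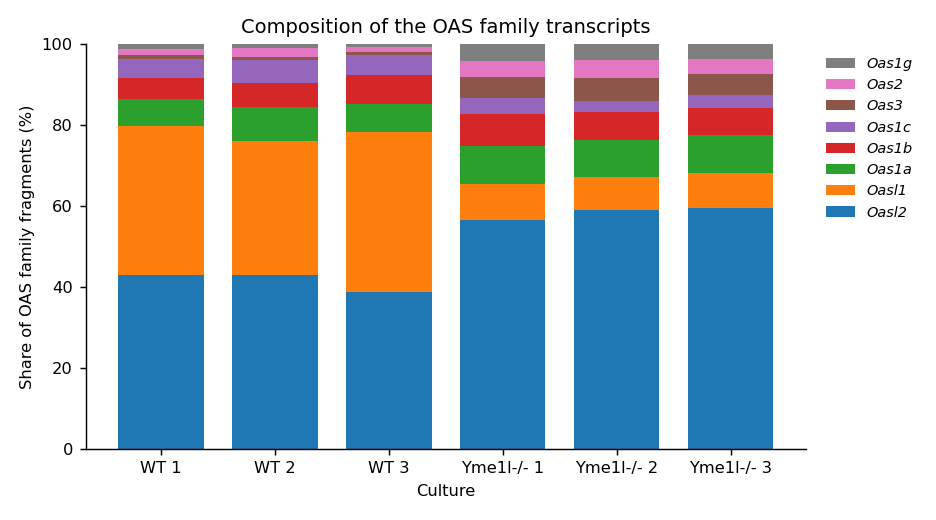
Share of each OAS gene among all OAS family fragments of a library, in percent, for the 3 WT and 3 Yme1l-/- cultures. Oasl1 (orange) takes 33.2% to 39.6% in WT and 8.34% to 8.97% in Yme1l-/- cultures, and Oasl2 (blue) takes 38.7% to 42.9% and 56.4% to 59.6%.

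Ratios within a library do not depend on its depth scaling. The ratio of Oasl2 to Oasl1 fragments was 1.17, 1.29 and 0.977 in the WT cultures and 6.29, 7.06 and 6.90 in the Yme1l-/- cultures. The 5 synthetase genes together gave 1.44, 1.67 and 1.22 times the CPM of Oasl1 in WT and 8.84, 9.83 and 9.41 times in Yme1l-/- cultures. The Oas1a to Oas1g ratio was 5.20, 8.0 and 8.43 in WT, where it rests on 7 to 10 Oas1g fragments, and 2.30, 2.27 and 2.42 in Yme1l-/- cultures. None of these ratios overlapped between genotypes (p = 0.1 each, exact permutation test, the smallest possible). They come from the same fragments as the fold changes above and are not separate results.

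The 2-5A pathway list as reported here held 8 genes, of which 4 were tested. Abce1, Pde12 and Enpp1 were called lower and Akap7 was not called, and the median log2 fold change of the 4 was -0.49, beside 34.1% of all tested loci called lower. The other 4 were the Oas1 paralogs Oas1d, Oas1e, Oas1f and Oas1h, which had at most 3 fragments in any library and were not tested. Oas1h had 0 in all 6.

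Abce1 encodes a ribosome recycling factor. It was at 725, 720 and 708 CPM in WT and at 458, 449 and 436 CPM in Yme1l-/- cultures. The cultures of a genotype lay close together and the log2 fold change was -0.68 ± 0.05 (SE, edgeR adjusted p 1.64e-07). Tested loci of its chromosome, 8, had a median of -0.32, and relative to that median the log2 fold change of Abce1 was -0.37.

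Enpp1, Pde12 and Akap7 encode enzymes that degrade 2-5A. Enpp1, a membrane phosphodiesterase that also hydrolyses cGAMP outside cells, was at 32.7, 69.4 and 39.4 CPM in WT and at 1.91, 2.26 and 2.59 CPM in Yme1l-/- cultures. The WT cultures spread widely (SD 19.6 CPM), and all were above the Yme1l-/- cultures, with a log2 fold change of -4.37 ± 0.42 (SE, edgeR adjusted p 0.000561). Pde12, a mitochondrial phosphodiesterase, was at 48.0, 46.6 and 43.3 CPM in WT and at 38.2, 36.7 and 36.9 CPM in Yme1l-/- cultures, a log2 fold change of -0.30 ± 0.05 (SE, edgeR adjusted p 0.000371). That value was -0.13 relative to chromosome 14, whose median was -0.17. Akap7 was at 9.96 to 11.6 CPM in WT and 10.7 to 13.2 CPM in Yme1l-/- cultures, with a log2 fold change of 0.13 ± 0.10 (SE, edgeR adjusted p 0.268) and a 95% interval from -0.09 to 0.35.

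**Figure D4:**
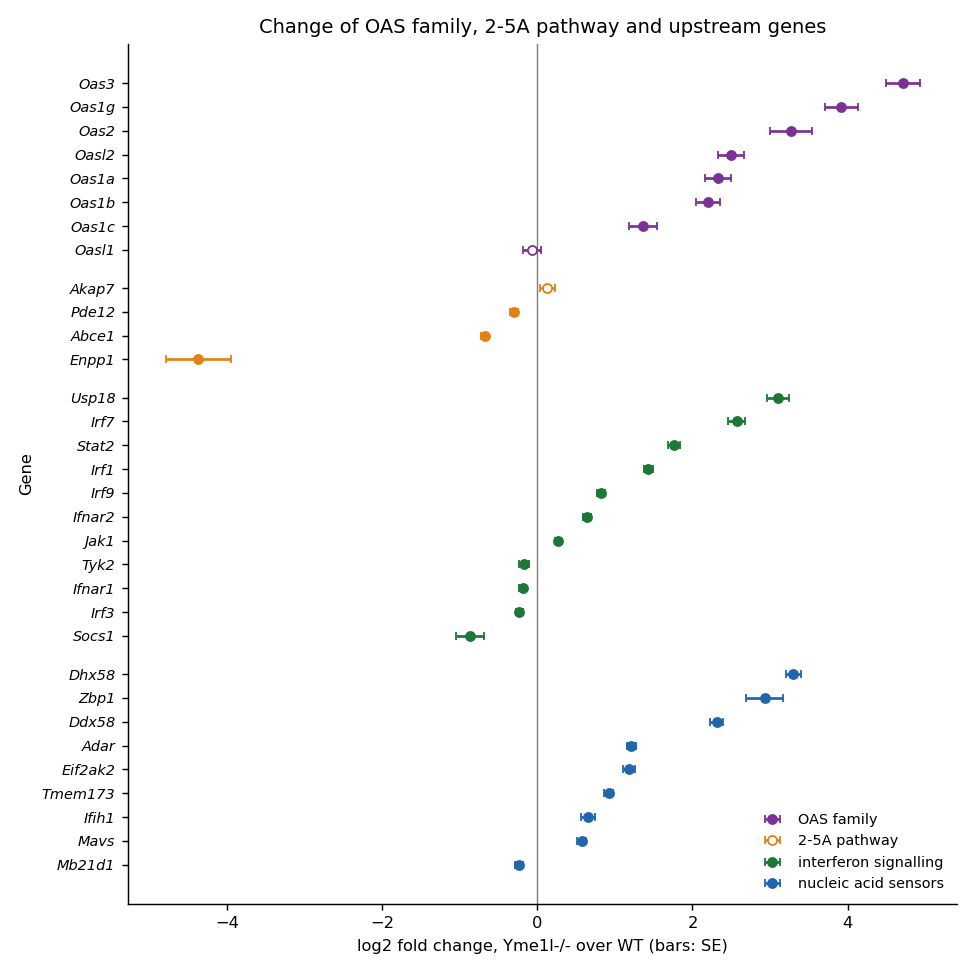
Log2 fold change of Yme1l-/- over WT with its SE for the tested genes of the OAS family, the 2-5A pathway, interferon signalling and nucleic acid sensing, where filled symbols passed the edgeR test and open symbols did not. Oas3 lies highest at 4.71 and Enpp1 lowest at -4.37, and Oasl1 and Akap7 are the open symbols.

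Of 11 genes of interferon signalling, which drives OAS transcription, 7 were called higher and 4 lower, where 33.6% and 34.1% of all tested loci were. Their median log2 fold change was 0.64, against 0.00 over all tested loci. The 4 that rose by 2-fold or more were Usp18, which encodes an ISG15 protease that also dampens signalling at the interferon receptor (3.10 ± 0.14, SE), Irf7, the factor that amplifies type I interferon transcription (2.57 ± 0.11), Stat2 (1.76 ± 0.08) and Irf1 (1.43 ± 0.06). Irf7 went from 4.80, 6.57 and 4.69 CPM in WT to 30.2, 31.7 and 33.4 CPM in Yme1l-/- cultures. Relative to the medians of their chromosomes, Usp18 stood at 2.76, Irf7 at 2.58, Stat2 at 1.46 and Irf1 at 1.07. Other members of the list, named here after their values were seen, changed by less. The loci of Irf9 (with Rnf31, 0.82), Ifnar2 (with Gm21970 and Il10rb, 0.64) and Jak1 (0.27) were called higher, and Tyk2 (-0.17), Ifnar1 (-0.19), Irf3 (-0.23) and Socs1 (-0.87) lower. The Tyk2 call was lost under 8 of 14 alternative settings and turned under 1.

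Of 9 genes of nucleic acid sensing beside the OAS proteins, 8 were called higher and 1 lower, where 33.6% and 34.1% of all tested loci were, with a median log2 fold change of 1.18. The changes of 2-fold or more were those of Dhx58 (3.30 ± 0.10, SE) and Ddx58 (2.31 ± 0.08), which encode the RNA sensors LGP2 and RIG-I, of Zbp1 (2.93 ± 0.24), a sensor of Z-form nucleic acids, of Adar (1.21 ± 0.06), which edits double-stranded RNA, and of Eif2ak2 (1.18 ± 0.08), which encodes the double-stranded RNA-activated kinase PKR. Tmem173 (0.92), Ifih1 (0.65) and Mavs (0.57) rose by less. Mb21d1, which encodes cGAS, a nucleotidyltransferase related to the OAS enzymes, was the gene called lower, at -0.24 ± 0.05 (SE, edgeR adjusted p 0.00105). Relative to the median of its chromosome, 9, which was -0.36, Mb21d1 stood at 0.12 instead.

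The genomic surroundings of the OAS genes were examined because clones can gain or lose chromosomes. Over the 926 tested loci of chromosome 5 the median log2 fold change was 0.01, and 31.6% were called higher. Within 1 Mb of the Oas1, Oas2 and Oas3 cluster, 27 other loci were tested, of which 7 were called higher and 5 lower, with a median of 0.05 and a range from -0.51 to 2.85. Between them, Oas1a, Oas1b, Oas1c and Oas2, which passed the filter in both genotypes, were called higher. Oas1g and Oas3, also called higher, had to differ to be tested. Around Oasl1 and Oasl2, 45 other loci were tested, of which 23 were called higher and 11 lower, with a median of 0.23 and a range from -2.71 to 3.26. Removal of the chromosome's median of 0.01 could hardly move any OAS gene, so the 7 calls that remained, Oas1g and Oas3 included, are no check. A gain or loss of the segments around the OAS genes was not tested.

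**Figure D5:**
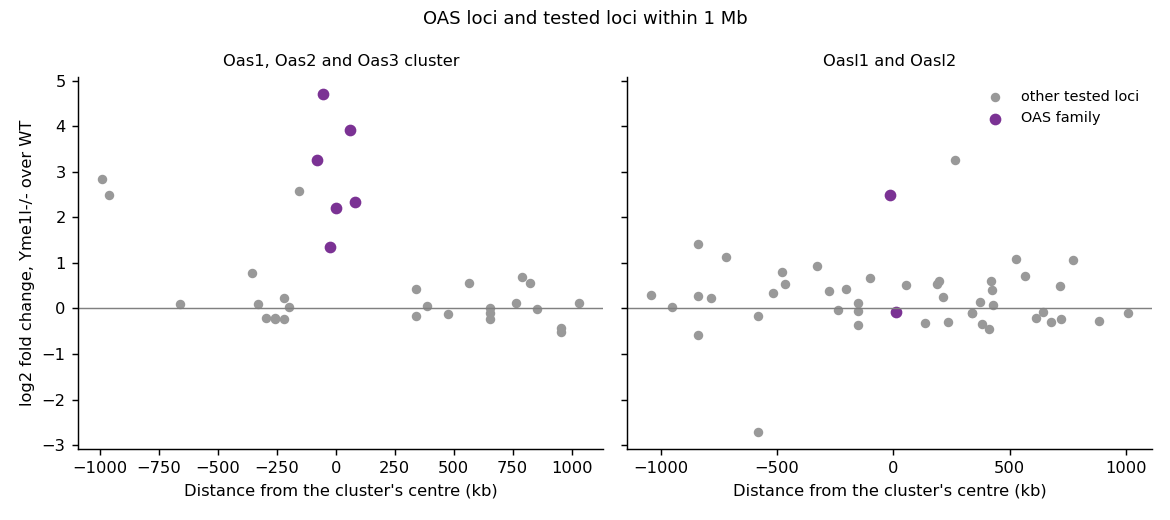
Log2 fold change of Yme1l-/- over WT for tested loci within 1 Mb of the main OAS cluster (left) and of Oasl1 and Oasl2 (right), against the distance of the locus from the centre of the cluster in kilobases, with OAS genes in purple. Most other loci lie near 0, with medians of 0.05 and 0.23, and the OAS genes reach 4.71.

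The pattern of the family over the 6 cultures was summarized as the mean of the 8 standardized log2 CPM profiles. Of loci with a single symbol that is not a predicted gene, the 5 with the highest Pearson r to it were Rida (0.9989), Dhrs3 (0.9979), Slc38a9 (0.9978), Cdon (0.9978) and Abca3 (0.9976). With 6 cultures in 2 genotypes, a high r mainly needs a separation of the genotypes, of whatever size. The log2 fold change was 0.84 for Rida and 0.73 for Abca3. Such values were common: 3267 tested loci (23.6%) had r above 0.9 and 132 (0.952%) above 0.99. The 7 called members had r of 0.9713 to 0.9933 with the mean of which they are part, and Oasl1 had -0.0454.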

How the data were processed

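Poly(A) RNA of 6 MEF cultures was sequenced from stranded libraries. The authors mapped the reads to GRCm38 and assembled loci on Ensembl annotation, with HISAT2 2.0.4, StringTie 1.3.3, Cufflinks and Cuffdiff 2.2.1 named in the submitters' processing notes. The authors deposited unnormalized fragment counts for each assembled locus, and 635 loci join several genes. The treatment of multi-mapped fragments is not given in the sources used here. The authors' FPKM values are pooled per genotype. The deposited columns of the authors' own fold changes and p-values were not used.

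Library totals were 33180867 to 49351107 fragments. Loci passing edgeR's filterByExpr (minimum count 10) were scaled by TMM and tested with edgeR 4.0.16 (glmQLFit, robust, and glmQLFTest, two-sided, R 4.3.3) over all 6 samples without covariates, with Benjamini-Hochberg adjustment over all 13867 loci and a threshold of 0.05. CPM are TMM-scaled, and the SE is the log2 fold change divided by the square root of F. The fit was tested on simulated data. Shares and ratios within a library were compared by the exact permutation test. Transcript lengths and shared windows of 100 bases came from GENCODE vM21, and promoters from RefSeq. Alternatives were RLE and upper-quartile scaling, DESeq2 1.42.0, other filters, a replicate block, omission of each culture, removal of chromosome medians, thinning, and shares per kilobase. No member locus was merged, so counting single-gene loci alone changed nothing.

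The members and gene lists were chosen with earlier results of these data known. Some list genes are not reported here and do not enter the list counts. Genes named were every member, every other gene of the 2-5A pathway list, signalling and sensor genes called with a change of at least 2-fold or not called, the 5 single-symbol, non-predicted loci most correlated with the members' mean profile, and Yme1l1. Further genes of those lists, and single cell type markers, were named after their values were seen.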

Additional observations from a re-analysis of the deposited data

How the results depend on the processing

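Over the 14 alternative fits, the 7 called members stayed called higher in each fit that tested them. Oasl1 stayed uncalled, at -0.17 to 0.03, and was above 0 only without Yme1l-/- replicate 1. Akap7, also uncalled, was below 0 only with chromosome medians removed, at -0.17. Omission of a single culture moved Oas3 between 4.64 and 4.85, Oas1g between 3.77 and 4.02, Oas2 between 3.06 and 3.75, and Oas1c between 1.24 and 1.51. Between same-numbered replicates of the genotypes, the correlations of deviations from the genotype means were 0.14, -0.094 and 0.048. Whether replicate numbers pair the samples was not tested. With the replicate block 7 members were called higher, 0 lower, and 9794 loci in all against 9387. With at least 10 counts in every sample, Oas1g and Oas3 were not tested. Removal of chromosome medians left 0 sensor genes called lower, Mb21d1 going to 0.12 (edgeR adjusted p 0.0489), and turned Tyk2 to 0.19 (adjusted p 0.021). Tyk2 was called in 6 of its 14 alternative fits, that reversal included. Per kilobase of transcript, the difference in family share (Yme1l-/- minus WT) was 3.71 percentage points for Oas1a in place of 1.97, 4.09 for Oas1g (2.91), 1.76 for Oas2 (2.45), 2.61 for Oas3 (4.50), 2.30 for Oas1b (1.03) and -30.6 for Oasl1 (-27.9). Under upper-quartile scaling 55.1% of calls were higher, against 49.6%. In WT, Oas3, Oas2 and Oas1g rested on 7 to 23 fragments per library, which limits the precision of their folds.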
